A study of Mus musculus with 3 samples.

Results

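Glutamatergic cells of the mouse medial prefrontal cortex that carried many transcripts of Il1rapl2 and Deptor were described here: 764 cells of the 52083 barcodes in 3 droplet libraries, and of 4781 barcodes that passed the gate for glutamatergic neurons. The members were chosen by their own counts. A barcode needed at least 4000 unique molecular identifiers (UMIs, 1 per captured transcript) and at most 15% of them from mitochondrially encoded genes. Per 10000 of its UMIs it needed at least 1 of Slc17a7, fewer than 1 of Gad1 and Gad2 together, and at most 2 of C1qa, Cldn5, Mog and Gja1 together. Those limits made the glutamatergic gate. Members then had at least 3 per 10000 of Deptor and Il1rapl2 together, and stayed below limits on marker genes of the neighbouring classes: 4 for Tnnc1, 4 for Calb1, Otof and Wfs1, 8 for Tshz2 and Vwc2l, 4 for Foxp2, Syt6 and Rprm, 3 for Pou3f1, Npr3 and Chst8, and 2 for Oprk1, Rxfp1 and Osr1. These values are a description and support nothing below.

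Neurons of this kind sit in the middle layers of the cortex and send their axons to other cortical areas and the striatum, so they are called intratelencephalic. Il1rapl2 encodes an X-linked relative of the interleukin-1 receptor accessory proteins that is found at synapses, and Deptor encodes an inhibitory partner of the mTOR kinase, which couples growth signals to protein synthesis. Rorb, a nuclear receptor of the ROR family, marks middle-layer neurons of sensory cortex, and Nell1 encodes a secreted protein. The mouse medial prefrontal cortex is known for lacking the dense granular layer 4 of sensory areas.

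The study's title concerns reproductive state and social cues in sociosexual behaviour. Its 3 libraries came from females in estrus, females in diestrus and males, with 2 mice pooled in each library. All 3 share the dissociation, which used papain, a Percoll step and a load of 15000 cells on the 10x Genomics 3′ chip. The labels used here give neither strain nor age, call the cells total neurons without describing a sort, and hold no replicate library. With 1 library per group no test was run, the 2 mice of a library cannot be told apart, and every interval below is a 95% interval that covers counting error only. Each ratio sets 1 library beside another and says nothing of how mice within a condition vary.

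The libraries stood apart in depth. The deposited matrices held 14476 (estrus), 18052 (diestrus) and 19555 (male) barcodes with 152291602, 144738154 and 115632520 UMIs, so that 2 of them hold more barcodes than cells loaded. Chosen cells numbered 251, 264 and 249, with a median of 50735, 39206 and 23491 UMIs and 8076, 7347.5 and 5991 detected genes. Their median share of mitochondrial UMIs was 3.29%, 4.11% and 3.71%. Estrus and diestrus shared 81 barcode sequences, estrus and male 68, and diestrus and male 97. Sums were therefore expressed as counts per 1000000 UMIs of nuclear genes (CPM), and the comparisons between libraries were repeated with each cell thinned to 4000 UMIs.

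The chosen cells made up 17.4% of the glutamatergic gate in estrus (interval 15.4 to 19.4%, 251 of 1445 cells), 14.9% in diestrus (13.2 to 16.6%, 264 of 1776) and 16.0% in male (14.2 to 17.9%, 249 of 1560). The 3 intervals overlap. When the rule was applied to cells thinned to 4000 UMIs the shares were 11.6%, 11.7% and 12.1%, closer to each other than the unthinned shares. In tissue that was dissociated, fewer cells of a type and fewer cells that survived cannot be told apart.

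Il1rapl2 did nearly all of the choosing. It reached 3 per 10000 by itself in 234 of the 251 estrus cells, 250 of the 264 diestrus cells and 235 of the 249 male cells. Deptor did so in 7, 3 and 21 cells, and 16, 14 and 11 cells passed only through the sum of both genes. No Deptor UMI at all was counted in 64, 84 and 96 of the chosen cells. The highest single cell held 32.7, 48.2 and 60.1 Il1rapl2 UMIs per 10000, against 5.87, 4.94 and 5.44 for Deptor. Just inside the minimum, at 3 to 4 per 10000, lay 43, 45 and 45 cells, and just outside, at 2 to 3 per 10000, lay 55, 47 and 46. Rorb stood at 140, 117 and 160 CPM just inside and at 102, 105 and 166 CPM just outside, and Nell1 at 167, 223 and 148 CPM inside and 158, 186 and 229 CPM outside. Rorb differed little across the minimum in diestrus and male, and in estrus was higher inside it. Nell1 in male was lower inside the minimum than outside. Etv1 was at 127, 173 and 96.9 CPM inside and 103, 29.5 and 91.7 CPM outside.

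Il1rapl2 lies on chromosome X from 137570608 to 138846946 (mm10, plus strand) and spans 1276 kb. Deptor lies on chromosome 15 from 55112317 to 55259271, Nell1 on chromosome 7 from 49974864 to 50866608 and Rorb on chromosome 19 from 18930605 to 19111196. The promoters of Il1rapl2, which chose the cells, and of Nell1 and Rorb, which the rule did not use, are printed from RefSeq (GRCm38.p6, 250 bases before to 50 after the start, 5′ to 3′). Capitals mark matches on either strand to AGGTCA, the half-site that ROR receptors bind, or to CANNTG, the E-box of neurogenic helix-loop-helix factors. The windows are chrX:137570504-137570803 (plus strand), chr7:49975100-49975399 (plus strand) and chr19:19111147-19111446 (minus strand).
Il1rapl2: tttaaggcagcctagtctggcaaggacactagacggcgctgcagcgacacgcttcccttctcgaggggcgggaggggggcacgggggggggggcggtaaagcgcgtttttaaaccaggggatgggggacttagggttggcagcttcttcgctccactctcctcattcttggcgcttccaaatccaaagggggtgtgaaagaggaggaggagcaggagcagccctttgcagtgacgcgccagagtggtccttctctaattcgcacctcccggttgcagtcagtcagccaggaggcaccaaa
Nell1: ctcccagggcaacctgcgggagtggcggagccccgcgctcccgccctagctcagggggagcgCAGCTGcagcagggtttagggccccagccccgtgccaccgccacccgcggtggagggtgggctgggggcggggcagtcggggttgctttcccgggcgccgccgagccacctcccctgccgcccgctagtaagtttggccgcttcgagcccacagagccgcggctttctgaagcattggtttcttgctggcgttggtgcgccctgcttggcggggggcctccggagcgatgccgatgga
Rorb: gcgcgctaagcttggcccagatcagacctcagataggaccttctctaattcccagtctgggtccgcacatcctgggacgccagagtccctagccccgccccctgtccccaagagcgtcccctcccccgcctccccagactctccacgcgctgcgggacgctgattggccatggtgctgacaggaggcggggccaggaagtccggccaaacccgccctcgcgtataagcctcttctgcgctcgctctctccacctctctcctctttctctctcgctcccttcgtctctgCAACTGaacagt
AGGTCA occurs in none of the 3 windows, while 16.3% of all 32851 promoter windows hold it. The table holds a second Rorb entry, chr19:19001068-19001367 (minus strand, not printed), with 3 CANNTG, no AGGTCA and 41.0% G and C. In the printed windows CANNTG occurs once in the Nell1 window, once in the Rorb window and not in the Il1rapl2 window, while 72.3% of all windows hold it. The palindromic estrogen response element, whose arms share letters with the half-site, is in none of them and in 0.07% of all windows. Bases G and C make up 60.3%, 72.3% and 63.7% of the 3 printed windows, above the median of 52.7% over all windows. These matches describe letters and not sites of binding.

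Markers fitted the label in part. Slc17a7, the vesicular glutamate transporter of cortical excitatory neurons, stood at 642 CPM (628 to 656) in estrus, 696 (680 to 712) in diestrus and 580 (561 to 599) in male, against 1.94, 5.81 and 7.86 CPM in barcodes gated as microglia. Il1rapl2 stood at 697, 823 and 842 CPM and Deptor at 78.9, 81.0 and 81.8 CPM. As the rule fixes, both were lower in glutamatergic cells under the minimum, where Il1rapl2 was at 85.1, 59.5 and 58.3 CPM and Deptor at 15.8, 17.0 and 11.4 CPM. Deptor in microglia barcodes was at 26.2, 17.9 and 26.2 CPM, above the glutamatergic cells under the minimum, and in endothelial barcodes at 5.89, 9.81 and 9.14 CPM.

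Rorb, which the rule did not use, was present and did not set the chosen cells apart. Its level was 97.3 CPM (91.8 to 103), 141 CPM (134 to 148) and 161 CPM (151 to 171) in the same order of libraries. Cells over the Tnnc1 limit had more of it, 136, 188 and 257 CPM, and cells under the Deptor and Il1rapl2 minimum had 94.5, 90.9 and 133 CPM. Upper-layer cells held 17.4, 47.6 and 22.01 CPM and layer 6 intratelencephalic cells 7.30, 7.57 and 18.6 CPM. Microglia barcodes held Rorb at 24.3, 64.7 and 51.0 CPM, but Nell1 at only 2.58, 4.42 and 11.4 CPM. Whether their Rorb is background was not tested. With each cell thinned to 4000 UMIs, Rorb was found in 25.1%, 34.8% and 37.3% of the chosen cells and in 2.78%, 4.93% and 7.26% of microglia barcodes, whose median depth was 5941.5, 5470.5 and 5084 UMIs.

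Nell1 was higher in the chosen cells than in most other sets. It was at 213, 271 and 266 CPM, against 132, 203 and 146 CPM in the Tnnc1 cells, 106, 101 and 113 CPM in cells under the minimum, and 2.58, 4.42 and 11.4 CPM in microglia barcodes. Layer 6 intratelencephalic cells held 168, 95.7 and 179 CPM, above the Tnnc1 cells in estrus and male and below them in diestrus. Scnn1a, a marker of granular layer 4 neurons of sensory cortex, gave 2, 1 and 0 UMIs in all chosen cells of the estrus, diestrus and male libraries. The 0 in male allows up to 0.467 CPM. Rspo1, another layer 4 gene, was at 4.32, 4.28 and 4.36 CPM, below the 18.6, 11.6 and 13.9 CPM of the Tnnc1 cells. Cux2, of the upper layers, was at 36.0, 30.9 and 38.7 CPM, well below the upper-layer cells at 171, 188 and 177 CPM. Fezf2, of the deep layers, was at 48.6, 38.5 and 33.5 CPM. The cells are therefore called here Il1rapl2-rich intratelencephalic-type cells, and the name layer 4 is not used, because Scnn1a was at or near 0 and Rspo1 was low.

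**Figure D1:**
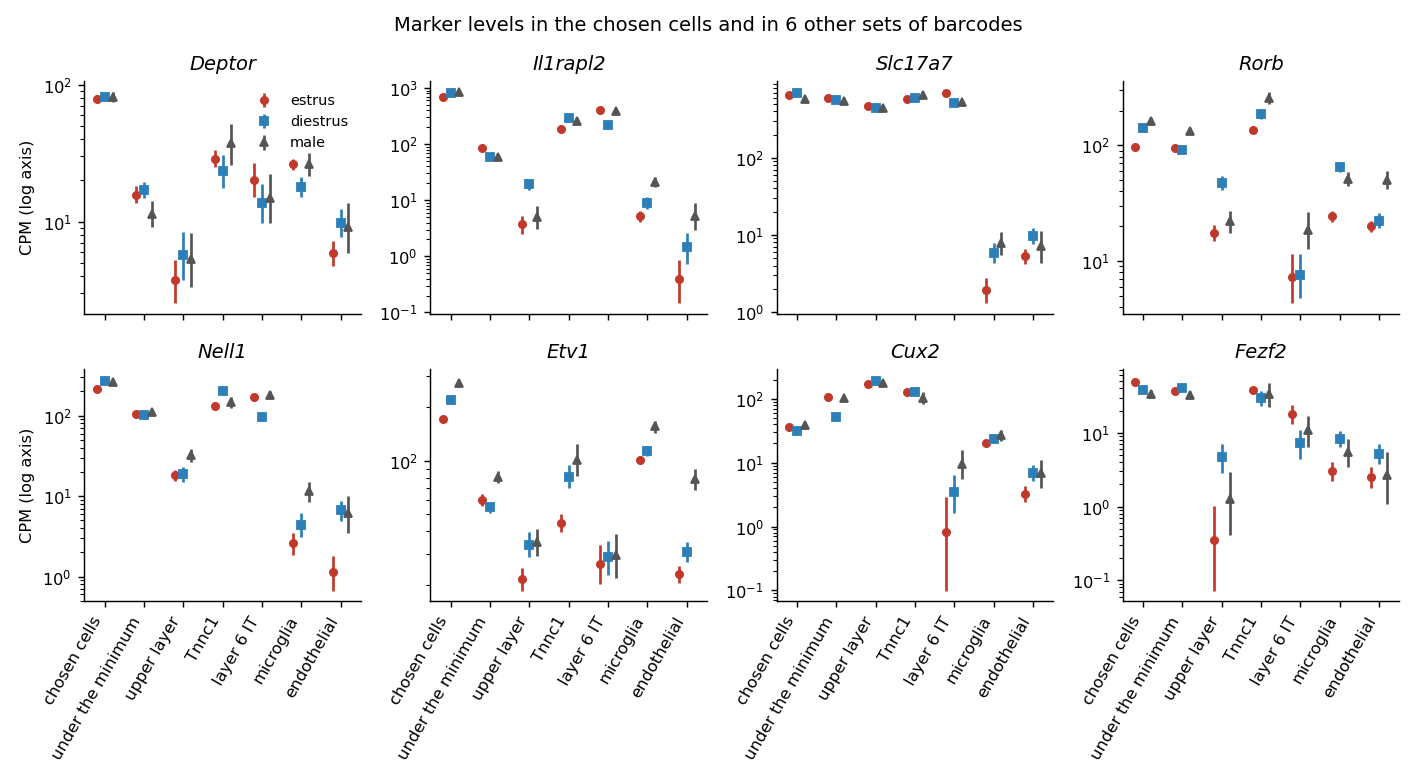
Level of 8 genes (CPM, log axis) in the chosen cells, in 4 other sets of glutamatergic cells and in microglia and endothelial barcodes; each point is 1 library and bars are 95% Poisson intervals, with a level of 0 left out. Il1rapl2 and Deptor were used by the rule; Rorb in the Tnnc1 cells, at 136, 188 and 257 CPM, lies above the chosen cells in every library, while Etv1 and Nell1 in the Tnnc1 cells lie below them.

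The chosen cells were set beside 3 neighbouring gates of the same libraries. Since the gates and the cells come from the same counts, these are descriptions. Of 7785 genes compared with upper-layer cells, 170 (2.18%) were at least 2-fold higher in the chosen cells in all 3 libraries and 156 (2.0%) at least 2-fold lower. At any size, 29.6% of the genes were higher in all 3 libraries and 40.8% lower. Against Tnnc1 cells it was 40 of 7755 (0.516%) higher and 21 (0.271%) lower, and against layer 6 intratelencephalic cells 105 of 7780 (1.35%) higher and 68 (0.874%) lower. Tnnc1 cells had the fewest genes past 2-fold of the 3 gates. At any size the order was another: 29.1% of genes were higher and 32.7% lower than in Tnnc1 cells in all 3 libraries, against 24.7% higher and 29.4% lower for layer 6 intratelencephalic cells.

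The highest-ranking genes over all 3 gates included a transcription factor of layer 5. Etv1, an ETS factor of layer 5 neurons, stood at 172, 221 and 274 CPM in estrus, diestrus and male. It was at 44.6, 81.5 and 101 CPM in Tnnc1 cells, at 21.5, 33.7 and 34.8 CPM in upper-layer cells and at 26.4, 28.6 and 29.4 CPM in layer 6 intratelencephalic cells. Microglia barcodes held Etv1 at 101, 114 and 156 CPM. Etv1 was higher than in the chosen cells in 2 sets outside these gates. Cells over only the Tshz2 and Vwc2l limit held 744, 788 and 816 CPM. Cells over only the Pou3f1, Npr3 and Chst8 limit held 182, 271 and 379 CPM. Fezf2, also among the 20 highest, was at 245, 185 and 186 CPM and at 285, 230 and 242 CPM in those 2 sets, above the chosen cells.

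Ptprm, a receptor phosphatase that binds itself across cells, was at 61.6, 80.0 and 75.9 CPM, with log2 ratios to Tnnc1 cells of 0.66, 1.31 and 0.62. Sema3e, a secreted guidance cue, was at 47.7, 69.6 and 73.9 CPM, above Tnnc1 cells (14.3, 23.1 and 17.1 CPM) and below layer 6 intratelencephalic cells (101, 82.0 and 152 CPM). Pcp4, a calmodulin regulator, was at 1083, 1423 and 1217 CPM, against 27.6, 88.3 and 99.3 CPM in upper-layer cells. In Tnnc1 cells it was nearer, at 958.5, 971.7 and 1196 CPM. Galntl6, Sulf2, Grik3, S100b, Tmem91, A2ml1, B3glct, Utrn, Sstr2, Hs6st3, Slc24a3, Fezf2, Ptgfrn and Chml were also among the 20 highest. The rank is a mean over the 3 gates, so a gene in it need not differ from Tnnc1 cells. Log2 ratios to Tnnc1 cells were -0.03, -0.10 and 0.22 for Chml and 0.10, 0.32 and -0.55 for Ptgfrn. They were 0.06, 0.39 and -0.23 for Galntl6, while Etv1, Ptprm and Sema3e were higher than in Tnnc1 cells in every library. Grik3, a kainate receptor subunit, was at 114, 125 and 98.0 CPM, above Tnnc1 cells at 32.5, 20.5 and 5.34 CPM and near layer 6 cells at 144, 108 and 110 CPM. Sstr2, a somatostatin receptor, was at 45.2, 35.8 and 26.3 CPM, against 17.0, 11.1 and 1.07 CPM in Tnnc1 cells.

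The 10 lowest were Kctd1, Gsta4, Rasgrf2, Acvr1c, Meis2, Gabrd, Ccnd2, Smarca2, Sparcl1 and Gnal. Rasgrf2, an exchange factor for Ras used as a layer 2/3 marker, was at 28.2, 31.8 and 44.4 CPM, against 179, 256 and 251 CPM in upper-layer cells. Meis2, a homeobox factor, was at 104, 85.3 and 84.2 CPM, against 388, 508 and 443 CPM there. Gabrd, the delta subunit of extrasynaptic GABA receptors, was at 26.3, 23.9 and 20.4 CPM and lower than in all 3 gates in every library.

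By lists, kainate receptor genes stood out against the Tnnc1 cells, and ribosomal protein genes were mostly lower than in each of the 3 gates. Of 6 kainate receptor genes 5 were higher in the chosen cells in all 3 libraries, where 29.1% of all genes were, and their median log2 ratio was 0.71 beside -0.01 over all genes. All 30 ribosomal protein genes were lower than in Tnnc1 cells in all 3 libraries, where 32.7% of all genes were, with a median of -0.25. Against upper-layer cells 28 of 30 were lower, where 40.8% of all genes were (median -0.16). Against layer 6 intratelencephalic cells 20 of 30 were lower, where 29.4% of all genes were (median -0.20). Rpl19, a protein of the large subunit, was at 1044, 655 and 674 CPM in the chosen cells and 1281, 830 and 867 CPM in Tnnc1 cells. Of 27 nuclear oxidative phosphorylation genes 24 were lower than in Tnnc1 cells in all 3 libraries, with a median of -0.20. Against upper-layer cells it was 21 of 27 (-0.15) and against layer 6 intratelencephalic cells 16 of 27 (-0.16). Immediate early genes were also lower than in Tnnc1 cells, 14 of 18 in all 3 libraries with a median of -0.37, and higher than in layer 6 intratelencephalic cells, 13 of 18 with a median of 0.63, where 24.7% of all genes were higher. The mTOR list was near the median of all genes against each gate, and Deptor, a gene of the rule, is counted in it. Its medians were -0.01, -0.01 and -0.04 against upper-layer, Tnnc1 and layer 6 intratelencephalic cells.

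Clustering of the 764 cells, with each gene centred within each library, gave 8 groups, and their leading genes are a description of how they were made. Each group was present in all 3 libraries, which the centring favours. Group 1 (116 cells) was led by Cux2 at 121 CPM against 16.4 CPM in the other members, with Htr2c, a serotonin receptor, and Adamtsl1. Group 2 (94 cells) was weakly set apart by Rab3b, Hpcal1 and Grp. Group 3 (143 cells) was led by Tafa2, Ccnd1 and Alcam, and group 5 (96 cells) by A2ml1, Rprm and Pcp4, the last at 2932 CPM. Group 6 (122 cells) was led by Sulf1, Cdh9, Angpt1, Cdh13 and Penk.

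The genes of the rule and the label were spread unevenly over these groups. Deptor was at 129 CPM in group 3 and 141 CPM in group 5, at 44.8 and 50.8 CPM in groups 1 and 2, and at 18.2 CPM in group 6, close to the level of glutamatergic cells under the minimum. Il1rapl2 was high in all of them, from 554 CPM in groups 1 and 2 to 1084 CPM in group 3. Rorb ran from 185 CPM in group 1 through 116 CPM in group 3 to 59.7 CPM in group 5 and 36.0 CPM in group 6. Etv1 was at 359 CPM in group 5 and at 18.9 CPM in group 6, and Cux2 was at 121 CPM in group 1, 0.94 CPM in group 5 and 2.08 CPM in group 6. Group 5 thus had high Deptor and Etv1 with little Cux2, group 1 had high Rorb and Cux2 with less Deptor, and group 6 had Il1rapl2 with little Deptor, Etv1 and Cux2 and the lowest Rorb. Nell1 was at 239 CPM in group 6, 179 CPM in group 5 and 299 CPM in group 3. The summed level of 8 layer 6 intratelencephalic markers had a median of 4.99 per 10000 in group 6 and at most 0.522 in each other group. Group 6 holds 122 of the 764 cells. It was given no cell type name, and the rule had capped Oprk1, Rxfp1 and Osr1 of those markers.

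The 3 other groups carry limits for what follows. Group 4 (131 cells) was shallow, with a median of 10123 UMIs, and held Malat1, a nuclear RNA, at 61820 CPM and 9.87% mitochondrial UMIs. Group 7 (16 cells) was led by the mural cell genes Acta2, Tagln, Vtn and Rgs5, and group 8 (46 cells) by Flt1 and Slc1a3 of endothelial and glial cells. The rule's cap on 4 non-neuronal genes does not include those. Scrublet, a doublet caller, scored only 2 members above 0.3, both in estrus, and no member was removed for its score.

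Shares of the groups were alike across libraries but for group 2. Centring each gene within each library before clustering favours like shares, so nothing is drawn from the likeness. It held 16.7% (12.3 to 21.9%) of the estrus members, 8.33% (5.30 to 12.3%) of the diestrus members and 12.05% (8.28 to 16.7%) of the male members, so that the estrus and diestrus intervals just touch. Group 6 held 13.9%, 17.4% and 16.5%, and group 4 held 14.7%, 17.4% and 19.3%. Group 2 was led in part by Cdkn1c and Grp, which also differed between libraries within it: Cdkn1c was at 112, 17.8 and 34.4 CPM in the estrus, diestrus and male cells of the group. A difference in its share is therefore not separable from a difference in its defining genes.

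**Figure D2:**
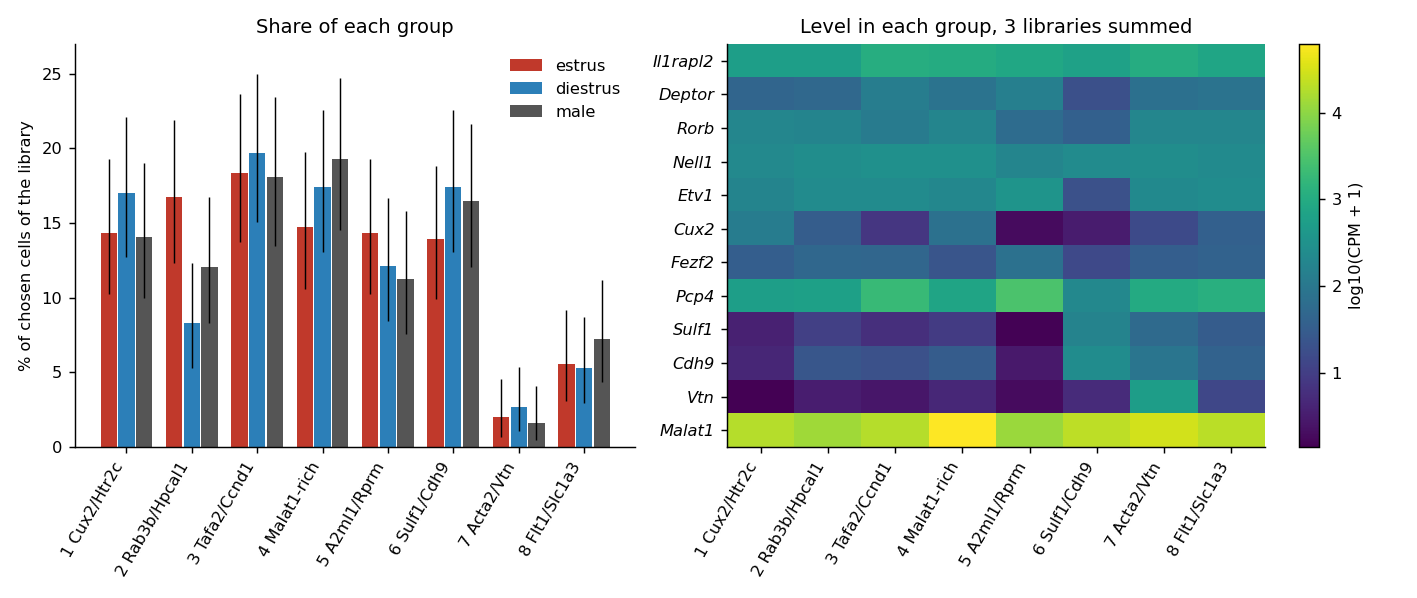
Left, share of the chosen cells of each library in 8 groups (%, bars with 95% Clopper-Pearson intervals); right, level of 12 genes in each group with the 3 libraries summed, as log10(CPM + 1). Deptor and Etv1 are lowest in group 6, at 18.2 and 18.9 CPM, and Vtn and Malat1 pick out groups 7 and 4.

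The sex-linked genes matched the labels. Xist, the RNA of the inactive X chromosome, had 4580 UMIs in estrus, 5132 in diestrus and 0 in male, at least 798-fold and 1043-fold higher than male against a floor of 3 UMIs in the male library. Eif2s3y, on the Y chromosome, had 0, 0 and 444 UMIs, at least 283-fold lower in estrus and 243-fold lower in diestrus against 3 UMIs in each of those libraries. Uty had 0, 1 and 282 UMIs, and Ddx3y 14, 24 and 299.

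Estrus was compared with diestrus first. Of 7239 genes with at least 100 UMIs over the pair and a mean of at least 20 CPM, 27 (0.373%) were at least 2-fold higher in estrus and 32 (0.442%) at least 2-fold lower, 0.815% either way. The 10 lowest included the receptors Chrm3 and Htr1f and the cadherins Cdh9 and Cdh6. The 10 highest included 4 haemoglobin genes, Cmss1, Cdkn1c and Gstp1. Ratios are log2 with 1 CPM added to each side.

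Chrm3, the muscarinic M3 receptor for acetylcholine, was at 72.7, 204 and 173 CPM in estrus, diestrus and male, a log2 ratio of estrus to diestrus of -1.47 (-1.60 to -1.37). The other glutamatergic cells of the gate gave -0.80. Estrus was lowest in each of the 6 groups without mural, glial or endothelial leaders, by the most in group 2, at 25.5 against 151 CPM in diestrus, and by the least in group 3, at 108 against 198 CPM. Htr1f, a serotonin receptor coupled to inhibitory G proteins, was at 54.8, 144 and 113 CPM (-1.38, -1.53 to -1.26), and estrus was again lowest in all 6 groups. The other gate cells gave -1.20 for Htr1f. Chrm2, the M2 receptor, was at 18.3, 43.1 and 39.4 CPM, a ratio of -1.19, but was lower in estrus than in diestrus in only 4 of 6 groups. Group 6 held 118, 260 and 154 of its UMIs. The 6 groups split the cells of the same libraries, so here and below agreement among them is not replication. The share of all genes with such agreement was not computed.

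The cadherins, which hold neurons together by binding between cells, were lower too. Cdh9 was at 23.3, 70.0 and 75.9 CPM (-1.55, -1.79 to -1.39), and Cdh6 at 13.2, 36.9 and 23.4 CPM (-1.41). The Cdh9 ratio rested on group 6, which held it at 113, 309 and 317 CPM, and was -0.97 without that group. For Cdh6 the mean of single-cell CPM gave -0.87. Cdh10, picked after its values were seen, was at 257, 525 and 566 CPM and lowest in estrus in all 6 groups, from 190 against 418 CPM in diestrus in group 2 to 203 against 366 CPM in group 5.

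The remaining genes on the lower side were Npas4, Nfia, Tmtc1, Trpm3, Gm16105 and AC149090.1. Npas4, an activity-induced transcription factor, was at 15.6, 54.3 and 29.5 CPM (-1.73, -2.04 to -1.56), with -0.70 in the other gate cells. Only 67 of 251 estrus cells had an Npas4 UMI, and 5 of them held 41.1% of its UMIs. Trpm3, an ion channel, was at 45.9, 120 and 94.6 CPM (-1.37) and at -0.67 without group 6. Nfia, a nuclear factor, was at -1.47, and at -0.94 in cells with no UMI of C1qa, Cldn5, Mog or Gja1. Gm16105 lies within Celf5 on the opposite strand, and since no source used here gives the strand setting of the counts, their reads cannot be told apart.

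On the higher side haemoglobin came first. Hbb-bs was at 906, 74.1 and 806 CPM, a ratio of 3.59. Only 5 estrus cells held 94.6% of all haemoglobin UMIs of the estrus members, and in male 5 cells held 93.1%, while the median chosen cell held 0.581, 0.565 and 0.898 haemoglobin UMIs per 10000. With the minimum of Deptor and Il1rapl2 lowered to 2 per 10000 the Hbb-bs ratio was 0.47, and the 4 haemoglobin ratios lay between 0.31 and 0.47. In the other gate cells they were on the opposite side, from -1.31 to -1.61. These ratios describe a handful of cells.

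Cmss1 was at 779, 162 and 280 CPM (2.26, 2.19 to 2.34), 2.44 in the other gate cells, and highest in estrus in all 6 groups. It overlaps Filip1l and 2 other genes on the opposite strand. Gm42418, which overlaps AY036118 at a ribosomal RNA repeat, was at 4618, 1470 and 1707 CPM (1.65), and Gm19951 at 38.9, 4.37 and 13.9 CPM (2.89). Cdkn1c, an inhibitor of the cell cycle, was at 62.9, 17.4 and 23.5 CPM (1.80), and the other gate cells gave 2.03. Cdkn1c is also a marker of the Tnnc1 class. All 4 markers of that class were higher in estrus than in diestrus in the chosen cells, where 51.0% of all genes were. Their median was 0.74, 0.56 after length correction, and 1.70 in the other gate cells. The rule capped Tnnc1, a marker of the class, in the chosen cells. The other gate cells include those over the Tnnc1 limit, 163, 63 and 37 in estrus, diestrus and male. Nothing is therefore drawn from the difference between these medians. Against male all 4 markers were also higher in estrus, where 51.8% of all genes were, with a median of 0.79. The part of Tnnc1-class cells among the members in these ratios was not tested. Gstp1, a glutathione transferase with near-identical copies, was at 38.5, 10.6 and 10.7 CPM (1.78), and Hist1h4d, a histone H4 gene, at 32.5, 10.7 and 12.5 CPM (1.51).

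Gene length moved with this comparison. Across the 7239 genes, which are not replicates of each other, Spearman's rho between length and the log2 ratio was -0.51. With genes cut into 5 equal bins by length, the shortest, with a median of 5.196 kb, had a median ratio of 0.27, and the longest, with a median of 200.2 kb, had -0.20. Estrus over male gave -0.47 with bin medians from 0.26 to -0.19, and diestrus over male 0.03 with medians between -0.01 and 0.01. With every cell thinned to 4000 UMIs the first 2 values were -0.28 and -0.28. The part of depth, RNA quality or intron counting in this relation was not tested. For most lists below the median is therefore given also after the median of each gene's length decile was subtracted, called length correction.

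**Figure D3:**
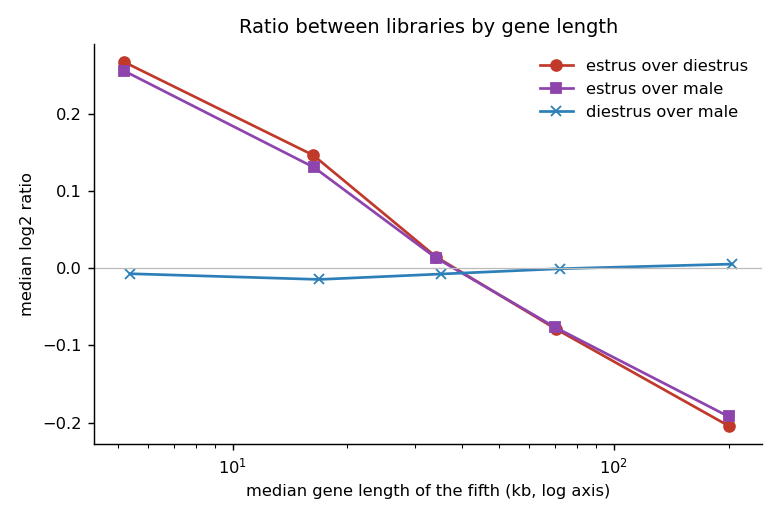
Median log2 ratio between libraries in the chosen cells for 5 equal bins of genes by length (median length of each bin in kb, log axis). Both ratios with estrus run from about 0.27 or 0.26 in the shortest bin to -0.20 or -0.19 in the longest, and diestrus over male stays between -0.01 and 0.01.

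By lists, receptors for amines and acetylcholine stood lower in estrus than in diestrus. All 8 of the 8 genes compared were lower, where 49.0% of all genes were, with a median of -0.49 beside 0.01 for all genes. The median was -0.51 after length correction and 0.03 in the other gate cells. Chrm1, the M1 receptor, was at 66.2, 83.7 and 87.4 CPM, and Hrh3, a histamine receptor, at 62.0, 68.6 and 72.6 CPM, small differences next to Chrm3 and Htr1f. Of 33 genes in the list 25 did not reach the filter and are not part of this count. Adra2c, an adrenergic receptor under the filter, was higher in estrus, at 26.8, 11.02 and 9.82 CPM, and is not in the count of 8.

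Axon guidance genes and cadherins were also lower, 24 of 25 (median -0.32, -0.23 after length correction) and 18 of 19 (-0.40, and -0.17 after length correction). Of all genes 49.0% were lower. Epha5, a receptor of the ephrin family, was at 396, 470 and 561 CPM, and Robo2, a receptor for Slit, at 329, 397 and 365 CPM. Pcdh9, a protocadherin, was at 1190, 1951 and 1796 CPM. GABA receptor genes were lower in 10 of 13 (-0.39, and -0.25 after length correction), with Gabrb1 at 505, 660 and 609 CPM. Kainate receptor genes were lower in all 6 (-0.36, and -0.20 after correction). The other gate cells were lower in these lists too. Their medians were -0.15 for axon guidance, -0.49 for cadherins, -0.25 for GABA receptors and -0.39 for kainate receptors. AMPA receptor genes were near the median of all genes, at -0.07.

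Among genes of the cell type itself the layer 4/5 list was lower in 9 of 12, where 49.0% of all genes were. Its median was -0.30, -0.18 after length correction, beside 0.04 in the other gate cells. Genes of the rule were not taken out of this list. Rorb gave -0.53 (-0.65 to -0.42) and was lower in estrus than in diestrus in 5 of 6 groups, with group 1 the exception at 207 against 144 CPM. Kcnh5, a potassium channel, was at 52.6, 113 and 94.6 CPM (-1.09) and lower in all 6 groups, with -0.18 in the other gate cells. Nell1 gave -0.35 and Etv1 -0.36. Fezf2 and Cux2 had the opposite sign, at 0.33 and 0.22.

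Lists around the 2 genes that name the cells differed in their medians. Il1rapl1, the closest relative of Il1rapl2, was at 659, 1011 and 1040 CPM, and Ptprd, a presynaptic receptor phosphatase that binds IL1RAPL proteins, at 4244, 5681 and 5826 CPM, both lowest in estrus. In that list of synaptic organisers 30 of 36 genes were lower in estrus than in diestrus, where 49.0% of all genes were. The median was -0.25, -0.17 after length correction and -0.14 in the other gate cells. Genes of the rule were not taken out of the lists in this paragraph. In the mTOR list 16 of 27 were lower, with a median of -0.02. Within it Rheb, the activator of mTOR, was at 465, 294 and 261 CPM and Rps6, a ribosomal protein downstream of it, at 330, 203 and 212 CPM.

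Ribosomal protein genes were higher in estrus than in diestrus in 24 of 30, where 51.0% of all genes were, with a median of 0.40 and 0.17 after length correction. Heat shock genes were higher in 10 of 12 (0.19, and 0.03 after correction). All 13 mitochondrially encoded genes were lower, with a median of -0.27. After length correction it was -0.57, but the deciles were set on nuclear genes only, so nothing is drawn from that value. Late activity genes differed between the cell sets: their median was -0.09 in the chosen cells and 0.40 in the other gate cells. Bdnf, a neurotrophin of that list, was at 144 and 150 CPM in the chosen cells (-0.06) and had a ratio of 0.88 in the others. The other gate cells hold more Tnnc1 cells in estrus (163, 63 and 37 cells in estrus, diestrus and male), and the part of that make-up in this difference was not tested.

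**Figure D4:**
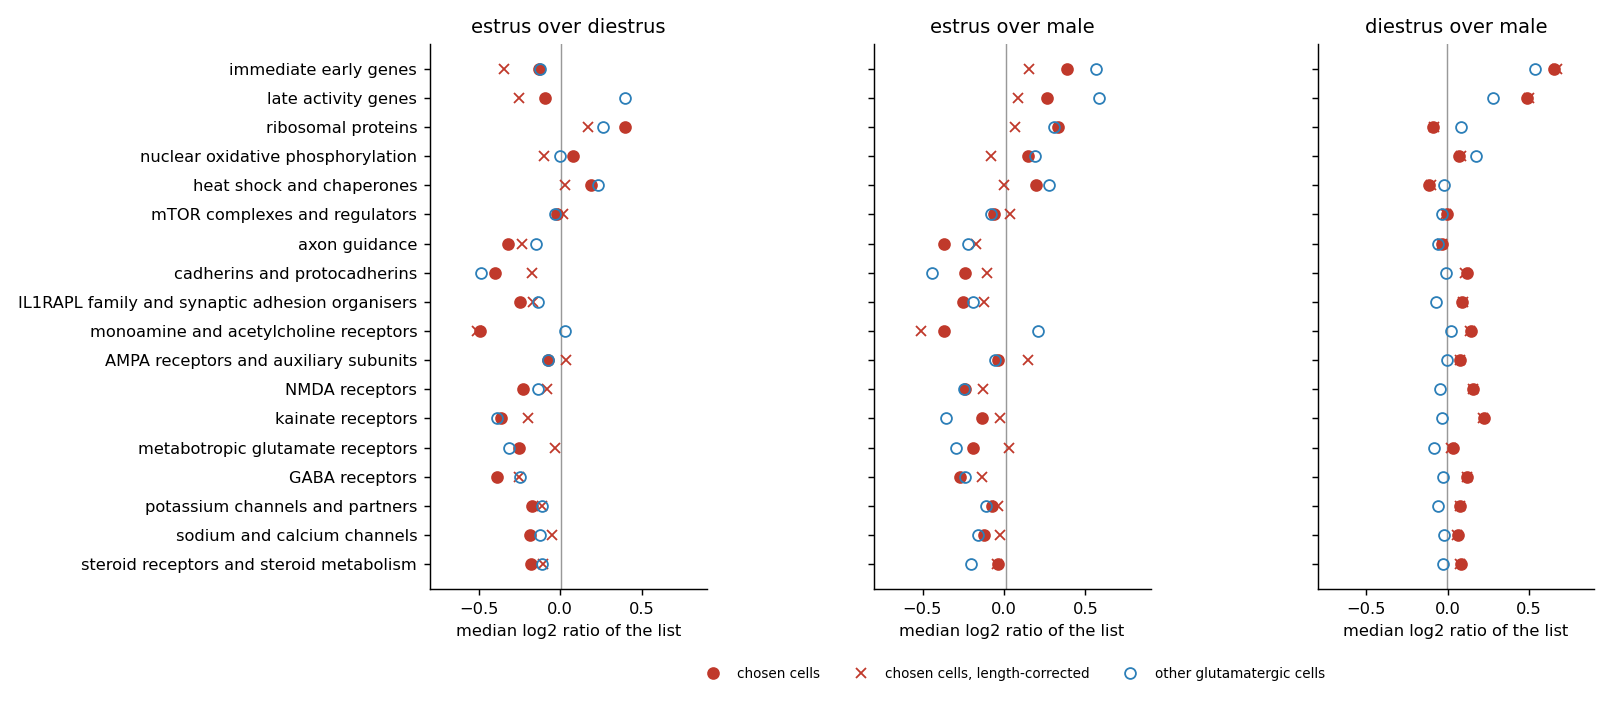
Median log2 ratio of 18 gene lists for the 3 pairs of libraries in the chosen cells (filled), in the chosen cells after length correction (crosses) and in the other glutamatergic cells of the gate (open); the grey line is the median of all genes. Amine and acetylcholine receptors lie at -0.49 in the chosen cells and 0.03 in the others for estrus over diestrus, and immediate early genes lie at 0.65 for diestrus over male.

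Estrus was compared with male next. Of 7308 genes, 28 (0.383%) were at least 2-fold higher in estrus and 54 (0.739%) at least 2-fold lower, 1.12% either way. The split moved with scaling: edgeR's TMM factors gave 34 higher and 39 lower, and DESeq2's size factors 34 and 41. Estrus takes part in both this comparison and the last, so values of estrus that stand apart appear in both.

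After Xist, the higher side held Gstp1, Rhbdl3, Ier5l, C2cd4b, Ier5, Cmss1, Gm42418, Gm19951 and Hnrnpa0. Rhbdl3, a rhomboid-like membrane protein, was at 41.1, 23.2 and 11.8 CPM (1.71, 1.45 to 2.16), with 0.67 in the other gate cells. Ier5, an immediate early gene, was at 152, 93.7 and 51.7 CPM (1.53, 1.38 to 1.72), and Ier5l, its relative, at 62.6, 29.1 and 19.3 CPM (1.65). Ier5 gave 1.62 in the other gate cells. Hnrnpa0, an RNA-binding protein, was at 150, 66.0 and 55.8 CPM (1.41). Thinning the cells moved the Gstp1 ratio from 1.75 to 2.65 and the Gm19951 ratio from 1.42 to 0.73.

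After the Y-linked genes, the lower side included Mal, Brinp3, Cdh9, Pcdh11x, Ptchd4 and Gm16105. Mal, a gene of myelin, was at 10.8, 17.5 and 41.9 CPM (-1.87), and at -0.67 without groups 7 and 8. In male 5 cells held 72.9% of the Mal UMIs. The summed level of 10 oligodendrocyte markers had a median of 1.70, 1.76 and 1.79 per 10000 in the chosen cells, with a highest cell of 32.8, 56.0 and 125 per 10000, and none of the 10 was at 0 in any library.

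Brinp3, a secreted neural protein on the layer 4/5 list, was at 31.6, 67.2 and 108 CPM (-1.74, -1.95 to -1.59) and lowest in estrus in all 6 groups, with -1.02 in the other gate cells. Pcdh11x, an X-linked protocadherin, was at 18.0, 37.6 and 59.1 CPM (-1.66), and Ptchd4 at 19.0, 47.7 and 58.9 CPM (-1.58) with -0.38 in the other gate cells. The Cdh9 ratio of -1.66 was -0.74 without group 6.

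**Figure D5:**
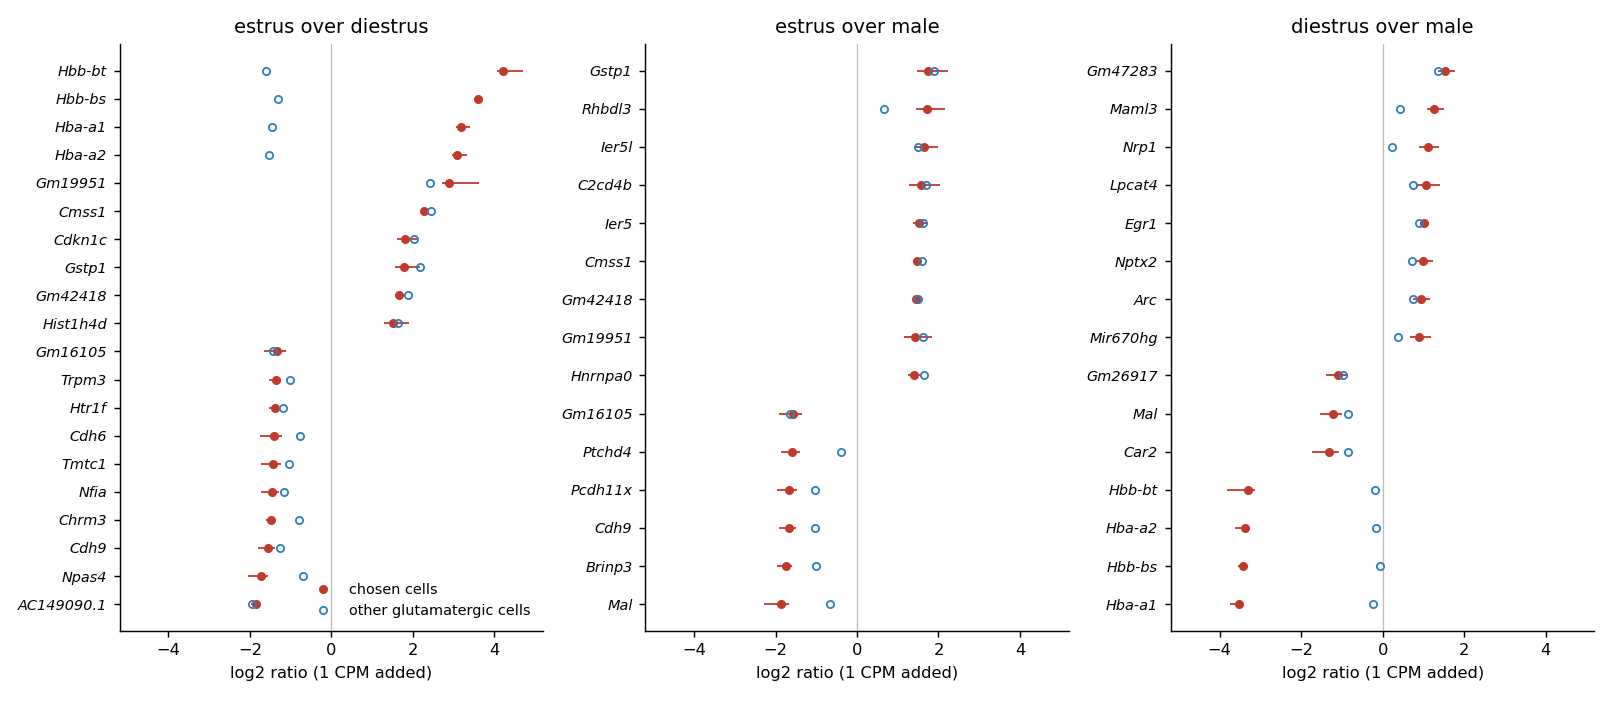
Log2 ratio of the 10 highest and 10 lowest genes of each pair in the chosen cells (filled, with 95% counting intervals of the ratio) and in the other glutamatergic cells of the gate (open), with Xist, Tsix, the Y-linked genes Eif2s3y, Uty and Ddx3y and 1 gene not reported here left out. Haemoglobin genes lie on opposite sides in the 2 cell sets for estrus over diestrus, while Cmss1, Gm42418 and Hist1h4d have like ratios in both.

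Layer 4/5 genes were lower in estrus than in male in 11 of 13, where 48.2% of all genes were, with a median of -0.32 and -0.27 after length correction. Rorb gave -0.72, Etv1 -0.67 and Nell1 -0.32. Amine and acetylcholine receptors were lower in 8 of 9 (median -0.37, and -0.51 after length correction, with 0.21 in the other gate cells). Axon guidance genes were lower in 20 of 25, with a median of -0.37 and -0.17 after length correction. Kainate receptor genes, lower in all 6 for estrus over diestrus, were split 3 to 3 here, with a median of -0.14 and -0.02 after correction.

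Immediate early genes were higher in estrus than in male in 12 of 17, where 51.8% of all genes were, with a median of 0.39 and 0.16 after length correction. Egr4 was at 142, 97.9 and 53.8 CPM (1.38), and Jund at 310, 186 and 155 CPM (1.00). Late activity genes were higher in 8 of 12, with a median of 0.27 and 0.08 after correction.

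Diestrus and male had the fewest genes past 2-fold of the 3 pairs. Of 7278 genes, 7 (0.0962%) were at least 2-fold higher in diestrus and 11 (0.151%) at least 2-fold lower, 0.247% either way. The 7 higher genes were Xist, Tsix, Gm47283, Maml3, Nrp1, Lpcat4 and Egr1. The 11 lower genes were Eif2s3y, Uty and Ddx3y of the Y chromosome, 4 haemoglobin genes, Car2, Mal, Gm26917 and BC006965.

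Egr1, a transcription factor induced within minutes of activity, was at 345, 485 and 240 CPM, a ratio of diestrus to male of 1.01 (0.93 to 1.09), with 0.90 in the other gate cells. Diestrus was above male in all 6 groups, for example at 344 against 215 CPM in group 6 and 244 against 103 CPM in group 2. Arc, a regulator of synaptic strength, was at 48.2, 80.1 and 41.4 CPM (0.93), and Nptx2, a secreted pentraxin, at 65.4, 71.3 and 35.4 CPM (0.99). Neither reached 2-fold. As a list, immediate early genes were higher in diestrus in 15 of 17, where 48.9% of all genes were, with a median of 0.65 and 0.67 after length correction. The median in the other gate cells was 0.54.

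Late activity genes were higher in diestrus than in male in 11 of 12, where 48.9% of all genes were. Their median was 0.49 in the chosen cells and 0.28 in the others. Homer1, a scaffold of the postsynapse with a short form induced by activity, was at 257, 452 and 268 CPM and higher in diestrus than in male and in estrus in all 6 groups. Its ratio of diestrus to male was 0.75 (0.67 to 0.83) against 0.47 elsewhere. Bdnf was at 144, 150 and 90.7 CPM and lowest in male in all 6 groups. Male was thus the low library for Bdnf, Vgf (180, 178 and 125 CPM) and Nptx2, and diestrus the high one for Homer1 and Arc. Egr1 was highest in diestrus and also lowest in male, where it was below both other libraries in 5 of 6 groups. Dissociation itself induces immediate early genes, and its part in the difference between libraries was not tested.

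Maml3, a coactivator of Notch signalling, was at 67.1, 97.4 and 39.7 CPM, a ratio of diestrus to male of 1.27, with 0.42 in the other gate cells. Nrp1, a receptor for semaphorins, was at 37.0, 59.8 and 27.3 CPM (1.10), with 0.24 in the others and 0.54 after thinning. Lpcat4, an enzyme of phospholipid remodelling, was at 32.0, 41.1 and 19.0 CPM (1.08), and Mir670hg, a microRNA host gene, at 40.8, 46.3 and 24.3 CPM (0.90, and 0.48 with the rule applied to thinned cells). Gm47283, annotated on the Y chromosome from 90784738 to 90816464, was higher in both female libraries, at 94.6, 106 and 35.8 CPM.

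On the lower side Car2, a carbonic anhydrase, was at 7.66, 11.8 and 31.0 CPM (-1.32). Mal was at 10.8, 17.5 and 41.9 CPM (-1.21), and Gm26917, next to the ribosomal RNA repeat, at 20.4, 21.8 and 47.7 CPM (-1.10). With the minimum of Deptor and Il1rapl2 raised to 5 per 10000 the Car2 ratio was -0.42 and the Mal ratio 0.16. The 4 haemoglobin ratios lay between -3.30 and -3.53, and between -0.75 and 0.48 with the minimum lowered to 2.

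GABA receptor genes were higher in diestrus than in male in 12 of 13, with a median of 0.12, and kainate receptor genes in 5 of 6 (0.22), where 48.9% of all genes were. Axon guidance genes were lower in 13 of 25, where 51.1% of all genes were, with a median of -0.03. Amine and acetylcholine receptors were higher in 7 of 12, with a median of 0.14, and the mTOR list was lower in 15 of 26.

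Among receptors for steroid hormones, Esr1, the estrogen receptor alpha, was at 6.03, 6.56 and 8.10 CPM, under the filter, and the intervals of its 3 ratios all include 0. Pgr, the progesterone receptor, was at 41.3, 47.7 and 42.4 CPM, with log2 ratios between -0.20 and 0.17. Nr3c1, the glucocorticoid receptor, was at 82.6, 106 and 112 CPM. Nr3c2, the mineralocorticoid receptor, was at 22.0, 39.9 and 46.4 CPM, with ratios of estrus to diestrus and male of -0.83 and -1.04. Esrrg, an orphan receptor related to estrogen receptors, was at 25.7, 42.5 and 53.4 CPM, with -0.71 and -1.03. Pgrmc1, a membrane protein linked to progesterone, was highest in estrus at 435, 305 and 289 CPM. Of 13 genes of this list compared, 9 were lower in estrus than in diestrus, where 49.0% of all genes were, with a median of -0.18 and -0.11 after length correction. In estrus over male 8 of 13 were lower, where 48.2% of all genes were, with a median of -0.04 before and after correction, and 2 of 13 were at least 2-fold lower, where 0.739% of all genes were. In diestrus over male 8 of 13 were higher, where 48.9% of all genes were, with a median of 0.08.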

How the data were processed

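Per the labels' protocols, cells of the medial prefrontal cortex were dissociated and profiled with the 10x Genomics 3′ v3.1 kit. The deposited matrices hold whole-number UMI counts per gene and barcode, made by the authors and not normalized. The submitters' processing notes name Cell Ranger 3.0.2 and the mm10 build, while the file headers name Cell Ranger 7.0.0; no source used here gives the intron or strand settings. Coordinates and lengths come from GENCODE M21 for mm10, in which 32235 of 32285 gene identifiers matched.

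The members, gene lists and markers were chosen with earlier results of these data known. Counts of members were summed per library, divided by nuclear totals (CPM) and compared as log2 ratios with 1 CPM added. Ratio intervals are exact conditional binomial intervals without the added CPM, level intervals exact Poisson and share intervals Clopper-Pearson. Named genes had at least 100 UMIs over a pair and a mean of 20 CPM, with the 10 highest and 10 lowest ratios taken. Against neighbouring gates, the 20 highest and 10 lowest genes with at least 20 CPM in members of every library were taken. Genes of the rule were left out of these ranks but stayed in the lists. In lists, the most abundant genes, markers and steroid receptors were named; Chrm2, Adra2c, Kcnh5, Brinp3, Cdh10, Homer1 and Bdnf, and the genes followed through the groups, were chosen after their values were seen. Groups were found with Leiden clustering (scanpy 1.11.5, igraph 0.11.9) on 2000 variable genes, 15 components and 15 neighbours at resolution 0.6. Variable genes were picked with the library as batch, and each gene was centred within each library before clustering. No other integration was run. Doublet scores came from Scrublet. edgeR 4.0.16 and DESeq2 1.42.0 gave scaling factors only. The ratio and interval code was tested on simulated data. Some genes that the rules name are not reported here. Alternatives covered the minimum of the rule, depth, thinning, doublets, scaling, filters, gene length and leaving out groups of members; those that leave out the groups or the top cell of a gene were added after the data were seen.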

Additional observations from a re-analysis of the deposited data

How the results depend on the processing

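No paired analysis was possible because each group is 1 library with no replicate; for the same reason no replicate could be left out. Depth limits the male library most. Shares of the gate in estrus, diestrus and male were 21.2%, 17.5% and 18.9% at a minimum of 2 per 10000, 11.5%, 9.80% and 10.1% at 5, 11.6%, 11.7% and 12.1% with the rule on thinned cells, 14.9%, 12.3% and 13.3% without the Sulf1 and Cdh9 group, and 14.8%, 12.3% and 12.9% without the Malat1-rich group; at 8000 UMIs diestrus gave 16.7% and male 18.7%. Counts past 2-fold are in the order higher and lower for estrus over diestrus, estrus over male and diestrus over male. Thinned cells gave 68, 71, 103, 102, 30 and 40; no filter gave 83, 191, 132, 411, 76 and 101; a mean of 50 CPM gave 15, 13, 14, 17, 4 and 3. The mean of single-cell CPM gave 19 lower in estrus than diestrus, 5 CPM added gave 30 and length correction 31 lower in estrus than male, and a minimum of 5 gave 15 higher in diestrus than male. Length correlations for estrus over diestrus were -0.39 with the rule on thinned cells, -0.28 thinned, -0.38 by mean of cells and -0.23 unfiltered; estrus over male gave -0.28, -0.36 and -0.21 for the last 3; diestrus over male gave -0.092 with the rule on thinned cells and -0.10 with no UMI of the 4 non-neuronal genes. Signs turned for the layer 6 intratelencephalic list without the Sulf1 and Cdh9 group (0.88 for estrus over diestrus, 0.56 for estrus over male); for the sex-linked list at 50 CPM (8.55 and 8.93 over male), where only Xist passes the filter; for oligodendrocyte markers in diestrus over male (0.55 with no UMI of the 4 genes, 0.19 without groups 7 and 8); and for Hbb-bt (0.48 at a minimum of 2) and Mal (0.16 at 5) in diestrus over male; apart from the sex-linked list, the cause was not tested. Of the values of named genes under alternatives, 658 stayed within their counting interval, 300 left it and 2 turned.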

Other observations

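Mitochondrially encoded genes were kept out of the ranks and totals. In the chosen cells all 13 were lower in estrus than in diestrus and 12 of 13 lower than in male, with medians of -0.27 and -0.21. The length-corrected medians of -0.57 and -0.49 rest on deciles of nuclear genes, so nothing is drawn from them. In diestrus 10 of 13 were higher than in male, with a median of 0.07. Peptide genes were led by Cck, which encodes cholecystokinin and stood at 3276, 2389 and 2106 CPM in estrus, diestrus and male; its ratio of estrus to diestrus was 0.45 in the chosen cells and 1.04 in the other gate cells. Oprm1, the mu opioid receptor, was at 18.7, 29.2 and 39.1 CPM, and Npy1r, a receptor for neuropeptide Y, at 25.7, 37.4 and 47.4 CPM, both lowest in estrus. Penk, an opioid peptide precursor, was at 32.6 CPM in group 6 and at or under 0.389 CPM in groups 1, 2, 3 and 5. Npy, another peptide gene, was at 79.2 CPM in group 6 and between 5.22 and 11.8 CPM in those 4 groups.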
